A study of Mus musculus with 4 samples.

Results

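The genes described here encode the nuclear part of oxidative phosphorylation, taken as every gene symbol beginning with Nduf (subfamilies a, b, c, s and v), Sdha to Sdhd, Uqcr, Cox4 to Cox8 or Atp5. The rule found 92 of the 24428 symbols in the count tables, 45 for complex I, 4 for complex II, 8 for complex III, 18 for complex IV and 17 for complex V. Poly(A) RNA was sequenced from mouse embryonic stem cells of 129SvEv background at passage 15-20, grown in DMEM with 15% FBS and LIF. The cells carried Smarca4 alleles flanked by loxP sites (Smarca4flfl) and CreER, a recombinase that 4-hydroxytamoxifen activates. Smarca4 encodes an ATPase of the mSWI/SNF chromatin remodelling complexes. The 2 tamoxifen libraries came from cells kept for 48 h in 4-hydroxytamoxifen at 0.8 uM and harvested 72 h after it was added. The 2 ethanol libraries came from the same kind of cells given ethanol on the same schedule. All 4 carry one genotype label, so the groups rest on the treatment. Tamoxifen-treated cells without loxP sites were not analysed here, so deletion of Smarca4, the drug and active Cre cannot be told apart. Whether replicates were grown separately is not in the labels, and the p-values cover only differences among these 4 libraries, which may be technical.

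The respiratory chain passes electrons from NADH (complex I) or succinate (complex II) through ubiquinone to complex III, then by cytochrome c to oxygen at complex IV. Complexes I, III and IV pump protons across the inner mitochondrial membrane, and the ATP synthase, complex V, uses their return to make ATP. All but complex II combine subunits encoded in the nucleus with others encoded in mitochondrial DNA, and pluripotent cells are known for relying strongly on glycolysis. The prefixes also take in proteins that are not subunits of the named complex. Ndufaf genes encode complex I assembly factors, Ndufa4 is now assigned to complex IV, Cox7a2l promotes supercomplexes, and Atp5sl is known in human cells as a complex I assembly factor. Mitochondrially encoded subunits were not analysed here.

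The libraries held 13458463 and 17191445 reads in genes with tamoxifen, and 16130823 and 27086142 with ethanol. Smarca4 had 968 and 1226 reads in the tamoxifen libraries, against 5042 and 10649 in the ethanol libraries, a log2 fold change of -2.43 ± 0.17 (SE, edgeR adjusted p = 1.08e-05). Reads outside annotated genes made up 37.6% and 35.0% with tamoxifen, against 51.7% and 40.8% with ethanol. Stem cell markers summed to 5707 and 5407 CPM (reads scaled to library size with TMM factors) with tamoxifen and 5604 and 5462 with ethanol, with all 10 detected. Single markers differed: Klf4 (0.62) and Dppa5a (0.53) were called higher by edgeR, and Tdgf1 (-0.52) and Fgf4 (-0.93) lower. That is 40%, against 44.5% of all genes. With the GC correction described below, 3 were called higher and 3 lower (60%, against 20.1%). Fibroblast markers, of which 10 of 11 were tested, summed to 790 and 776 CPM with tamoxifen, above the 457 and 354 with ethanol. Of these 8 were called higher and 0 lower (80%, against 44.5% of all genes), and Lum had 0 reads in ethanol replicate 2. In bulk RNA, more cells of one type and more RNA per cell cannot be told apart, and the part of such cells in the results below was not tested.

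Oxidative phosphorylation genes did not move as a block. Of the 89 members tested, 9 were higher and 19 lower with tamoxifen at an edgeR adjusted p under 0.05, and 61 passed in neither direction. That is 31.5% of the members, against 44.5% of all 14479 genes tested. Over all genes 21.5% were called higher and 22.9% lower, so the share of members called higher lay under that background and the share called lower near it. The members' median log2 fold change was -0.07, against -0.01 for all genes, and with scaling to total counts it was 0.06, against 0.12. For 60 members the log2 fold change was under 0.5 in size. Only 5 members differed by 1 or more. The summed level of all members was 9687 and 10118 CPM with tamoxifen, against 11767 and 10014 CPM with ethanol, so the groups overlapped. All genes summed to 952260 and 963422 CPM with tamoxifen and 1050932 and 1040184 with ethanol, so sums scaled this way ran lower with tamoxifen. Members made up 1.02% and 1.05% of reads in genes with tamoxifen, against 1.12% and 0.963% with ethanol. Per-library CPM did not overlap between groups for 57 members, 21 higher and 36 lower, where 74% of all genes did not overlap (37% higher and 37% lower).

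**Figure D1:**
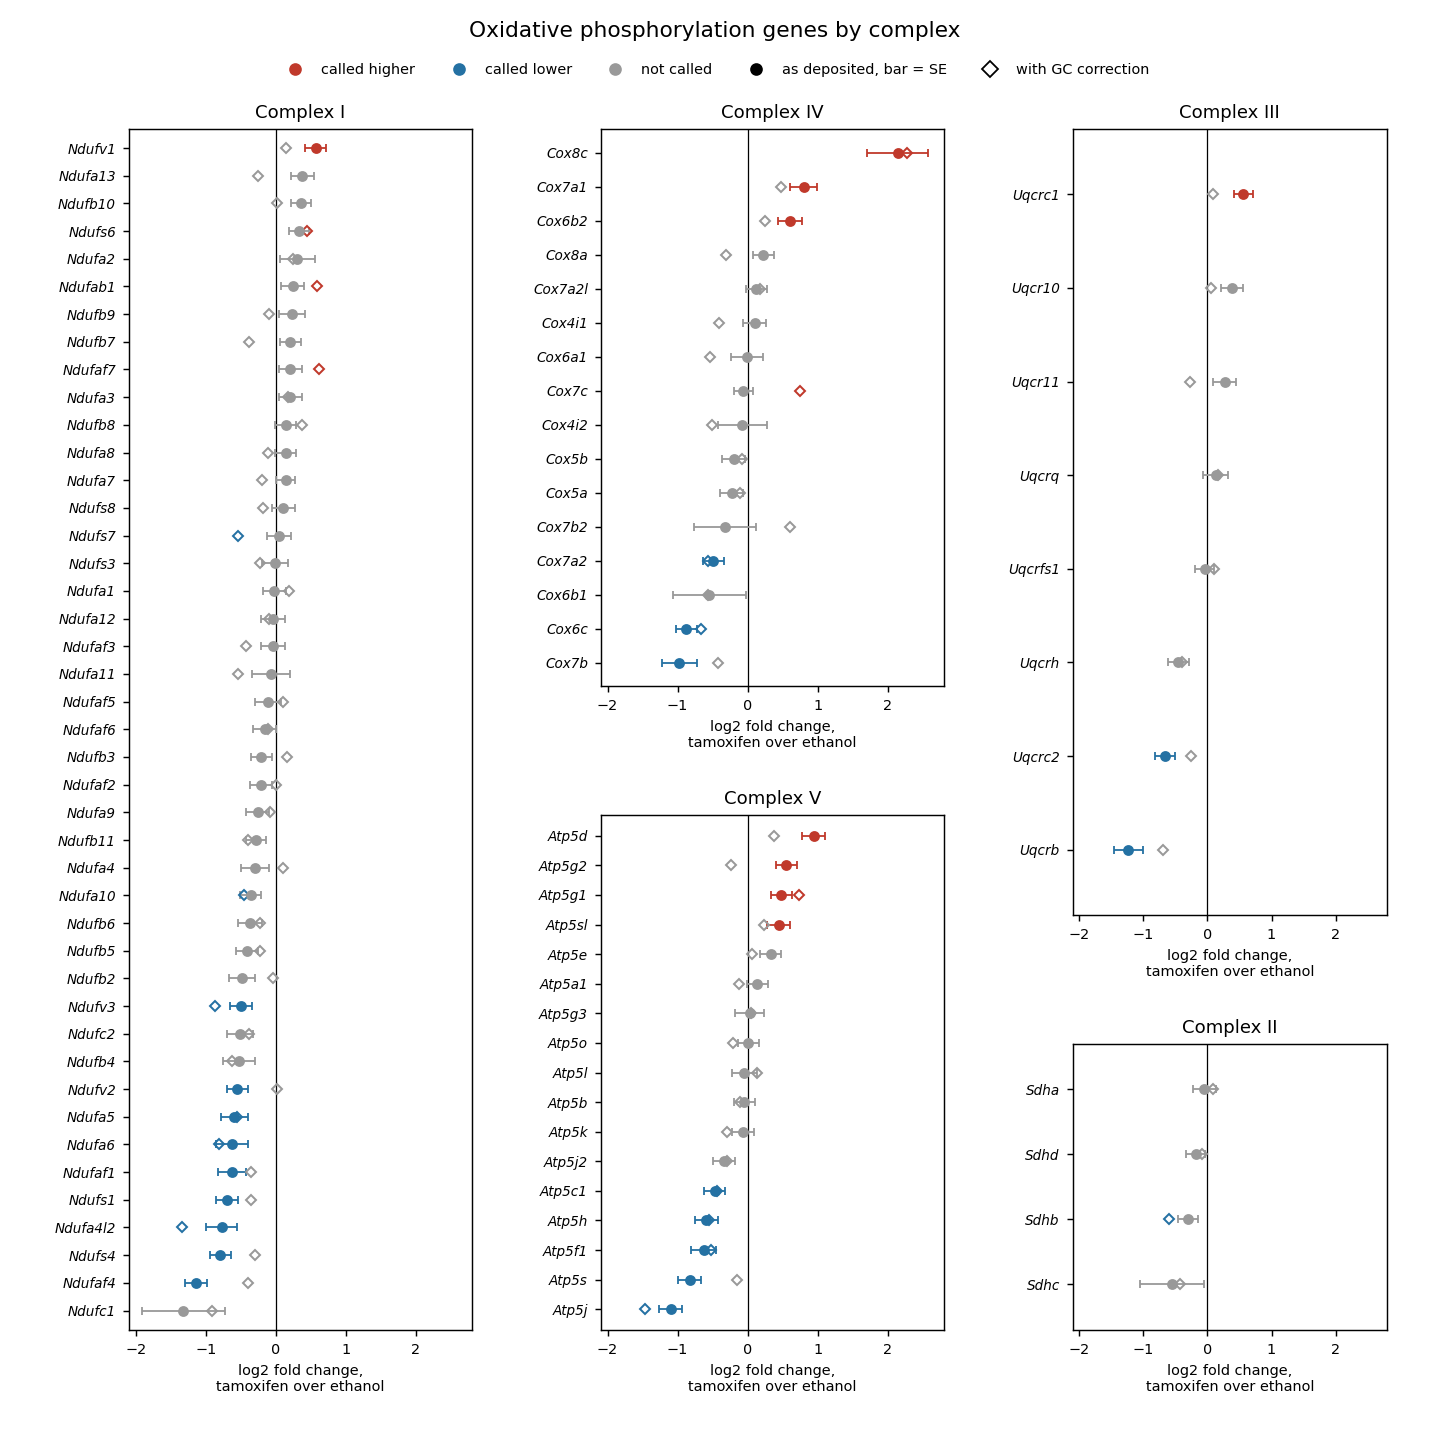
Log2 fold change of tamoxifen over ethanol for the tested members apart from 1 that is not shown, grouped by complex and ordered by size, with filled circles for the values as deposited (bars are SE) and open diamonds for the GC-corrected values. Red and blue mark members called higher and lower by edgeR; most members sit near 0, while Cox8c stands at 2.14 and Atp5j at -1.10.

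The fold changes followed the base composition of the transcripts. Across the 89 members, the Spearman correlation between log2 fold change and GC content of the longest coding transcript was 0.502, and across 14394 genes 0.645, given as a description over genes that share the same 4 libraries. Among the 14 members under 45% GC, 7 were lower and 0 higher, with a median of -0.61, against a median of -0.59 for all such genes. Of all 3190 genes under 45% GC, 1931 were lower and 75 higher. Among the 23 members at 55% GC or more, 6 were higher and 3 lower, with a median of 0.22, against 0.55 for all such genes. Of all 3758 genes in that class, 1963 were higher and 111 lower. With the GC trend of each library removed, 6 members were higher and 13 lower, which is 21.3% of members against 20.1% of all genes (10.1% higher, 9.98% lower). The median was then -0.18, against 0.01. Across the members the Spearman correlation with GC content was then -0.25, against 0.0439 across all genes. Members at 55% GC or more had a corrected median of -0.27, against 0.06 for all such genes. Under 45% GC the corrected medians were -0.10 and -0.02. With the trend with transcript length removed as well, 9 members were higher and 6 lower, or 16.9% against 18.8% of all genes (9.35% higher, 9.41% lower). Calls made in the same direction as deposited and with GC correction alone numbered 12, of which 2 were higher and 10 lower. A further 7 members were called with GC correction alone and not as deposited. Each complex is therefore given with both values, and "GC-corrected" below means the fit with GC correction alone. What sets the GC trend was not tested.

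**Figure D2:**
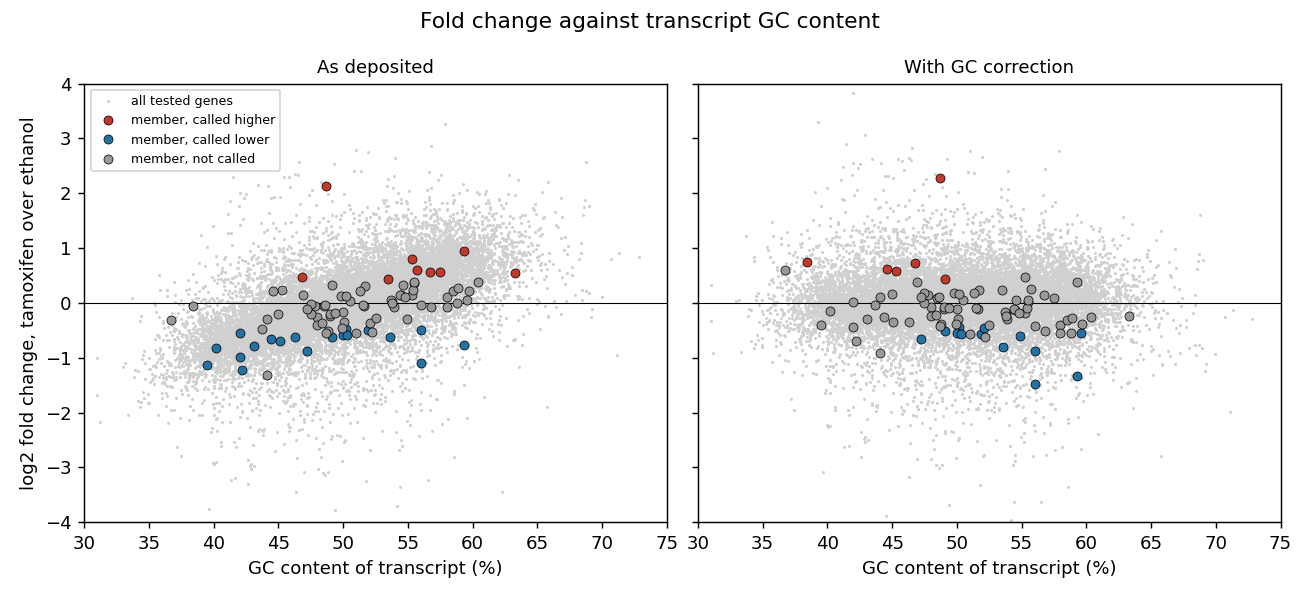
Log2 fold change (vertical axis, tamoxifen over ethanol) against transcript GC content in percent, as deposited on the left and GC-corrected on the right, with all tested genes in grey and members in colour by call. The left panel shows the climb with GC content (Spearman 0.645 over all genes and 0.502 over members). On the right it is nearly level over all genes (0.0439), while over members it is -0.25. In each panel 6 genes lie outside the drawn range.

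Single libraries moved these values. Without tamoxifen replicate 1 the members' median log2 fold change was -0.10, against -0.01 for all genes, and without tamoxifen replicate 2 it was -0.17, against -0.01. Without ethanol replicate 1 it was -0.01, against 0.03, and without ethanol replicate 2 it was -0.20, against 0.01. The members that kept their edgeR call in all 4 of these fits were Atp5d, Atp5j, Atp5s, Cox6c, Cox7b, Cox8c, Ndufaf4, Ndufs4 and Uqcrb. Atp5j kept it under all 19 alternative settings tried, with log2 fold changes between -1.57 and -0.92.

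Complex I, the NADH dehydrogenase, had 1 member higher and 9 lower among 44 tested (22.7%, against 44.5% of all genes). Over all genes 21.5% were called higher and 22.9% lower. The median log2 fold change of complex I was -0.14. GC-corrected, 3 were higher and 6 lower (20.5%, against 20.1% of all genes). Among them were Ndufab1 (0.59), Ndufaf7 (0.61), Ndufs6 (0.44) and Ndufa10 (-0.45), which were not called as deposited. Of these, Ndufab1 and Ndufs6 were also called without ethanol replicate 1 and no correction, at 0.40 and 0.38, and Ndufa10 without ethanol replicate 2, at -0.44. The median of complex I was -0.15 without tamoxifen replicate 1 and -0.20 without tamoxifen replicate 2, against -0.01 for all genes in both. It was -0.01 without ethanol replicate 1, against 0.03, and -0.20 without ethanol replicate 2, against 0.01. Its summed level was 2480 and 2614 CPM with tamoxifen, under the 3112 and 2667 CPM with ethanol, with little room between the second libraries. All genes summed to 952260 and 963422 CPM with tamoxifen, against 1050932 and 1040184 with ethanol, so this gap is not particular to complex I. Of the 7 core subunits, which carry the flavin and iron-sulphur clusters or line the quinone site, 1 was higher and 2 lower. That is 42.9%, against 44.5% of all genes. Ndufv1, which binds NADH and the flavin, had 42.0 and 49.6 CPM with tamoxifen, against 29.8 and 31.7 with ethanol (log2 fold change 0.57 ± 0.15, edgeR adjusted p = 0.00999; GC-corrected 0.15, not called). Its partner Ndufv2 went the other way, with 165 and 137 CPM against 214 and 228 with ethanol (-0.55 ± 0.15, edgeR adjusted p = 0.0126), a value of 0.02 after GC correction. Neither pair of groups overlapped, and the transcripts differ in GC content, at 56.7% for Ndufv1 and 42.0% for Ndufv2.

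Ndufs1, the largest core subunit, had 90.9 and 112 CPM with tamoxifen, against 153 and 178 with ethanol (-0.70 ± 0.16, edgeR adjusted p = 0.00428; GC-corrected -0.35, not called). The core subunits Ndufs3, Ndufs7 and Ndufs8 had log2 fold changes of -0.01, 0.05 and 0.11, and none of these was called. Ndufs7 was called in the GC-corrected fit, at -0.54, but not with GC and length correction, at -0.38. Without tamoxifen replicate 1, Ndufs1 was not called, at -0.56, and without tamoxifen replicate 2 Ndufv1 (0.45) and Ndufv2 (-0.42) were not.

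Among 28 accessory subunits tested, 4 were lower and 0 higher (14.3%, against 44.5% of all genes). Ndufs4, a subunit whose loss causes Leigh-like disease in mice, had 26.3 and 29.9 CPM with tamoxifen, against 46.5 and 50.6 with ethanol (-0.79 ± 0.15, edgeR adjusted p = 0.00167; GC-corrected -0.29, not called). Ndufv3, a small subunit of the NADH-binding arm, had 67.4 and 67.0 CPM against 108 and 82.6 with ethanol (-0.50 ± 0.16, edgeR adjusted p = 0.0223), and GC-corrected -0.87, also called. Ndufa6 had 103 and 98.3 CPM against 196 and 114 with ethanol (-0.62 ± 0.23, edgeR adjusted p = 0.0498; GC-corrected -0.81, called). For Ndufv3 and Ndufa6 the first ethanol library was well above the second. Ndufv3 lost its call without tamoxifen replicate 1 (-0.51), tamoxifen replicate 2 (-0.50) or ethanol replicate 1 (-0.29), and Ndufa6 without the same libraries (-0.66, -0.59 and -0.18). Ndufa5 fell by 0.59 on the log2 scale (SE 0.19; GC-corrected -0.56, called), and lost its call with GC and length correction (-0.38), and without tamoxifen replicate 2 (-0.43) or ethanol replicate 1 (-0.40).

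Ndufc1 had the lowest value of complex I without a call. It held 19.2 and 24.3 CPM with tamoxifen, against 80.1 and 29.6 with ethanol, a log2 fold change of -1.32 ± 0.59 (edgeR adjusted p = 0.167). The first ethanol library stands far above the other 3. It was called at -0.44 without ethanol replicate 1 and at -1.87 without ethanol replicate 2. Ndufs5 had 0 reads in every library, where 3 reads would be 0.115 to 0.212 CPM. Of its 50-base stretches, 31.1% occur in other transcripts, foremost BC002163, which had 339 and 404 reads with tamoxifen and 334 and 548 with ethanol. Whether Ndufs5 reads were counted there was not tested.

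Among the 7 Ndufaf assembly factors, 2 were lower and 0 higher (28.6%, against 44.5% of all genes). Ndufaf4 had 21.6 and 21.8 CPM with tamoxifen, against 43.7 and 51.5 with ethanol (-1.14 ± 0.16, edgeR adjusted p = 0.000261), the smallest adjusted p of all members. At 39.5% its transcript is poor in GC, and the GC-corrected value was -0.40, not called. Ndufaf1 had 14.4 and 20.3 CPM against 23.5 and 30.2 with ethanol (-0.63 ± 0.20, edgeR adjusted p = 0.0205; not called after GC correction). Ndufaf1 lost its call without tamoxifen replicate 1 (-0.41) or ethanol replicate 2 (-0.43).

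Ndufa4l2, which resembles Ndufa4 and is known in human and mouse cells as a target of hypoxia signalling, had 17.6 and 10.7 CPM with tamoxifen, against 25.9 and 22.2 with ethanol. It fell by 0.77 on the log2 scale (SE 0.22, edgeR adjusted p = 0.0153) and by 1.34 after GC correction, though it was not called without tamoxifen replicate 2 (-0.44). Ndufa4 itself had 150 and 173 CPM against 241 and 158 with ethanol, overlapping groups, with a log2 fold change of -0.30 ± 0.20 and no call. It was called at -0.57 without ethanol replicate 2. Per length, Ndufa4 exceeded Ndufa4l2 in every library, at 354 and 403 TPM (reads per length, scaled to the library) against 51.6 and 30.9 with tamoxifen, and at 505 and 354 against 67.2 and 61.5 with ethanol.

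Complex II, succinate dehydrogenase, joins the citric acid cycle to the chain and is wholly encoded in the nucleus. None of its 4 genes was called by edgeR, and 0 had an unadjusted p under 0.05. Sdha, the flavoprotein, had 135 and 189 CPM with tamoxifen against 158 and 178 with ethanol (-0.05 ± 0.18). Sdhb, the iron-sulphur subunit, had 50.6 and 58.8 CPM against 72.6 and 62.8 with ethanol (-0.30 ± 0.15, edgeR adjusted p = 0.121) and was called lower after GC correction, at -0.60. The membrane anchors Sdhc and Sdhd had values of -0.55 ± 0.50 and -0.18 ± 0.15. Sdhc varied most among libraries, with 129 and 82.8 CPM against 216 and 94.6 with ethanol. Without ethanol replicate 2, Sdhb and Sdhc were called lower, at -0.40 and -1.02. Summed levels were 430 and 468 CPM with tamoxifen, against 593 and 476 with ethanol, where sums over all genes also ran lower with tamoxifen.

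Complex III, the cytochrome bc1 complex, had 1 member higher and 2 lower among 8 tested (37.5%, against 44.5% of all genes), and 0 in either direction after GC correction. Its 2 large core proteins moved in opposite directions. Uqcrc1 had 197 and 212 CPM with tamoxifen, against 143 and 135 with ethanol (0.56 ± 0.15, edgeR adjusted p = 0.00898). Uqcrc2 had 121 and 153 CPM, against 212 and 222 with ethanol (-0.66 ± 0.16, edgeR adjusted p = 0.00566). Their GC-corrected values were 0.09 and -0.26. Uqcrb, a subunit at the ubiquinone site, had 56.4 and 48.4 CPM against 155 and 91.4 with ethanol (-1.23 ± 0.23, edgeR adjusted p = 0.00297; GC-corrected -0.69), and 43.4% of its 50-base stretches occur in other transcripts. Uqcrfs1, the Rieske iron-sulphur protein, was near level (-0.04 ± 0.15). Uqcrc1 lost its call without tamoxifen replicate 2 (0.50) and Uqcrc2 without tamoxifen replicate 1 (-0.51). Without ethanol replicate 1, Uqcr10 and Uqcr11 were called higher, at 0.58 and 0.44, and Uqcrb fell by 0.80. Without ethanol replicate 2, Uqcrh was called lower at -0.65.

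**Figure D3:**
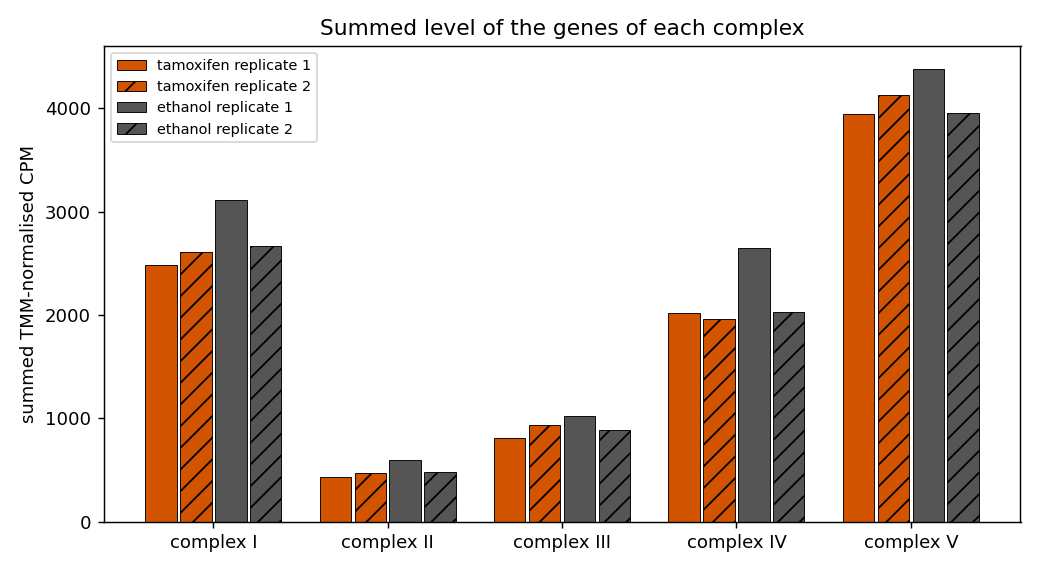
Summed TMM-normalised CPM of the genes of each complex in each library, tamoxifen in orange and ethanol in grey, with hatching for replicate 2 and no error bars since each bar is 1 library. Ethanol replicate 1 is the highest bar in every complex (2651 CPM for complex IV, for example). Sums over all genes, not drawn, were 952260 and 963422 CPM with tamoxifen and 1050932 and 1040184 with ethanol.

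Complex IV, cytochrome c oxidase, has subunits with paired isoforms of broad and restricted expression. It had 3 members higher and 3 lower among 16 tested (37.5%, against 44.5% of all genes), with 2 of each after GC correction. The 3 higher members were among 5 tested isoforms known for restricted tissues (60%), and the 3 lower ones among 10 widely expressed subunits (30%), against 44.5% of all genes. After GC correction 1 of those 5 was called, higher (20%, against 20.1% of all genes). Of those 10, 1 was then higher and 2 lower (30%). The restricted isoforms Cox4i2 and Cox7b2 were not called, at -0.08 and -0.32 (GC-corrected -0.51 and 0.60). Cox6c had 98.1 and 106 CPM with tamoxifen, against 195 and 183 with ethanol (-0.88 ± 0.15, edgeR adjusted p = 0.000711; GC-corrected -0.66, called). Cox7b had 175 and 198 CPM against 474 and 263 with ethanol (-0.98 ± 0.25, edgeR adjusted p = 0.012), and was not called after GC correction (-0.43). Cox7a2 had 99.0 and 107 CPM against 158 and 132 with ethanol (-0.49 ± 0.15, edgeR adjusted p = 0.0193; GC-corrected -0.57, called). Groups did not overlap for these 3 genes. Cox7a2 lost its call with GC and length correction (-0.37), and without tamoxifen replicate 1 (-0.45), tamoxifen replicate 2 (-0.55) or ethanol replicate 1 (-0.36), and Cox7b fell by 0.49 without ethanol replicate 1.

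The other widely expressed subunits were not called. Cox4i1, a regulatory subunit, had 214 and 270 CPM with tamoxifen and 239 and 215 with ethanol (0.10 ± 0.16). Cox5a and Cox5b had log2 fold changes of -0.23 and -0.20, and Cox8a 0.22. Cox6b1 had 300 and 130 CPM, against 389 and 239 with ethanol, a spread within each group as wide as the difference (-0.55 ± 0.52), and it was called at -1.27 without tamoxifen replicate 1. Cox7c, at 38.4% GC, was -0.06 as deposited and 0.75 after GC correction, where it was called. Without ethanol replicate 1, Cox6a1 was called higher at 0.43, and without ethanol replicate 2 Cox5a was called lower at -0.41.

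Cox8c, known from testis, had 22 and 27 reads with tamoxifen, against 7 and 7 with ethanol. That gives 1.56 and 1.51 CPM against 0.456 and 0.269 (2.14 ± 0.43, edgeR adjusted p = 0.00208; GC-corrected 2.27, called), the largest rise among the members on few reads. Cox7a1, the heart and muscle partner of Cox7a2, had 18 and 13.2 CPM against 9.51 and 8.49 with ethanol (0.80 ± 0.19, edgeR adjusted p = 0.00605; GC-corrected 0.47, not called). Cox6b2, the testis partner of Cox6b1, had 65.7 and 65.6 CPM against 50.6 and 36.3 with ethanol (0.60 ± 0.17, edgeR adjusted p = 0.0133; GC-corrected 0.25, not called). With GC and length correction Cox7a1 and Cox6b2 were called, at 0.69 and 0.47. Cox7a1 lost its call without tamoxifen replicate 1 (0.56), and Cox6b2 without tamoxifen replicate 2 (0.60) or ethanol replicate 2 (0.38). Muscle markers beside Cox7a1, 5 of 6 tested, had 2 called higher and 0 lower (40%, against 44.5% of all genes). The 2 were Myh6 and Ckm, Ckm on 10 and 13 reads with tamoxifen against 5 and 6 with ethanol. After GC correction 0 were called, against 20.1% of all genes. These markers summed to 44.2 and 49.3 CPM with tamoxifen against 32.3 and 35.2 with ethanol. GC-corrected sums of the tested markers overlapped, at 38.6 and 42.8 against 36.1 and 43.2. Their part in the Cox7a1 value was not tested.

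Per length, the broad isoform stayed above the restricted one in each library. Cox7a2 was at 437 and 464 TPM with tamoxifen, where Cox7a1 was at 108 and 78.4, while with ethanol Cox7a2 was at 619 and 552 and Cox7a1 at 50.6 and 48.3. Cox8a was at 1711 and 1850 TPM with tamoxifen, where Cox8c was at 9.90 and 9.49, while with ethanol Cox8a was at 1455 and 1363 and Cox8c at 2.57 and 1.62. Cox6a2 and Cox8b, the muscle isoforms, were too low to test. Cox6a2 had 1 and 0 reads with tamoxifen and 0 and 3 with ethanol, and Cox8b had 0 and 2 against 0 and 0.

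**Figure D4:**
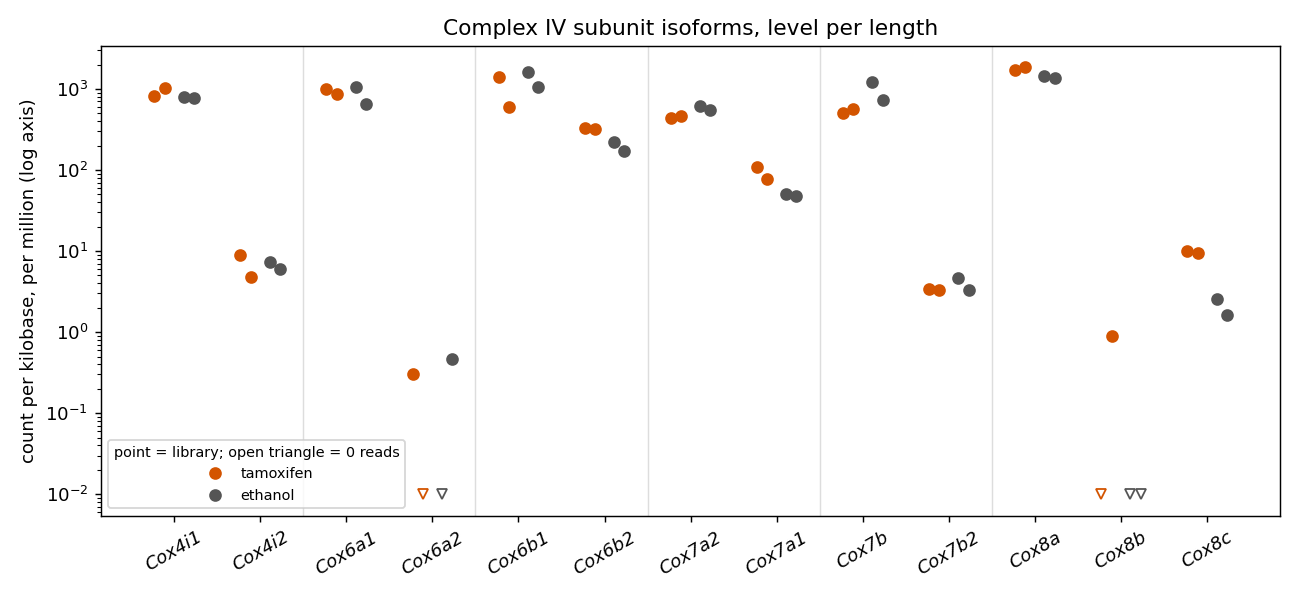
Level per length (TPM, log axis) of complex IV subunit isoforms in each library, tamoxifen in orange left of ethanol in grey, with open triangles at the bottom for libraries with 0 reads. The broad isoform of each set lies above its restricted partner, and Cox7a1 and Cox8c lie higher in both tamoxifen libraries than in either ethanol library.

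Complex V had 4 members higher and 5 lower among 17 (52.9%, against 44.5% of all genes). After GC correction 1 was higher and 4 lower (29.4%, against 20.1%), and with GC and length correction 2 were higher and 1 lower (17.6%, against 18.8%). The median log2 fold change of complex V was 0.02 without tamoxifen replicate 1 and -0.01 without tamoxifen replicate 2, against -0.01 for all genes in both. It was 0.12 without ethanol replicate 1, against 0.03, and -0.15 without ethanol replicate 2, against 0.01. Of the 7 subunits of the peripheral stalk and membrane sector, 3 were lower and 0 higher as deposited and GC-corrected. That is 42.9%, against 44.5% and 20.1% of all genes. With GC and length correction 1 was lower (14.3%, against 18.8%). These 7 subunits summed to 656 and 676 CPM with tamoxifen, against 1062 and 825 with ethanol. Of the 5 subunits of the F1 catalytic head, 1 was higher and 1 lower (40%, against 44.5% of all genes). The 5 summed to 2903 and 3057 CPM with tamoxifen, against 2907 and 2827 with ethanol. The difference between these sectors was not tested.

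Atp5j, coupling factor 6 of the peripheral stalk, had 103 and 115 CPM with tamoxifen, against 262 and 207 with ethanol. Its log2 fold change was -1.10 ± 0.16 (edgeR adjusted p = 0.000401), and -1.47 after GC correction (edgeR adjusted p = 4.51e-05). At 56.0% GC it lies among transcripts whose values were mostly higher with tamoxifen. The stalk subunits Atp5f1 (subunit b) and Atp5h (subunit d) fell by 0.63 and 0.59 (edgeR adjusted p = 0.0149 and 0.0109), and both were called after GC correction but not with GC and length correction, at -0.45 and -0.34. Of their 50-base stretches 38.7% and 47.9% occur in other transcripts, so their counts are uncertain. Atp5o, the stalk subunit that confers oligomycin sensitivity, was level at 134 and 137 CPM against 148 and 121 with ethanol (0.01 ± 0.15). Atp5f1 lost its call without tamoxifen replicate 2 (-0.53) or ethanol replicate 1 (-0.35), and Atp5h without tamoxifen replicate 2 (-0.51). Without ethanol replicate 2, Atp5j2 was called lower at -0.44.

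The catalytic subunits were the most abundant members and were not called. Atp5b, the beta subunit, had 1307 and 1449 CPM with tamoxifen and 1428 and 1429 with ethanol (-0.05 ± 0.15), and Atp5a1, the alpha subunit, had 993 and 1030 against 943 and 899 (0.14 ± 0.15). Atp5d, the delta subunit of the central stalk, had 323 and 291 CPM, against 181 and 138 with ethanol (0.94 ± 0.17, edgeR adjusted p = 0.00108). At 59.3% GC its corrected value was 0.38, not called, and 0.48 with GC and length correction, called. Atp5c1, the gamma subunit that turns within the head, had 226 and 225 CPM against 308 and 317 with ethanol (-0.47 ± 0.15, edgeR adjusted p = 0.0206; GC-corrected -0.44, called). It lost its call with GC and length correction (-0.38), and without tamoxifen replicate 1 (-0.48) or tamoxifen replicate 2 (-0.46). Atp5e, the epsilon subunit, was not called (0.33 ± 0.15), and was called in 4 of 19 alternatives, among them without ethanol replicate 1, at 0.39.

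The proton-carrying c ring is built from 1 protein made by 3 genes. Atp5g1 had 58.5 and 64.3 CPM with tamoxifen, against 46.7 and 41.5 with ethanol (0.48 ± 0.15, edgeR adjusted p = 0.0199; GC-corrected 0.73, called). Atp5g2 had 64.6 and 73.4 CPM against 45 and 49.4 with ethanol (0.55 ± 0.15, edgeR adjusted p = 0.0104), but at 63.3% GC its corrected value was -0.24. Atp5g3 had 181 and 182 CPM against 222 and 134 with ethanol (0.03 ± 0.21). Atp5g1 lost its call without tamoxifen replicate 1 (0.54) or tamoxifen replicate 2 (0.41), Atp5g2 without tamoxifen replicate 2 (0.46), and Atp5g3 was called at 0.44 without ethanol replicate 1. Outside the enzyme proper, Atp5s fell by 0.83 (SE 0.16, edgeR adjusted p = 0.00147; GC-corrected -0.15, not called). Atp5sl was 0.44 ± 0.16 higher (edgeR adjusted p = 0.0397; GC-corrected 0.24, not called), a call lost in DESeq2 and without tamoxifen replicate 1 (0.38), tamoxifen replicate 2 (0.49) or ethanol replicate 2 (0.28).

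**Figure D5:**
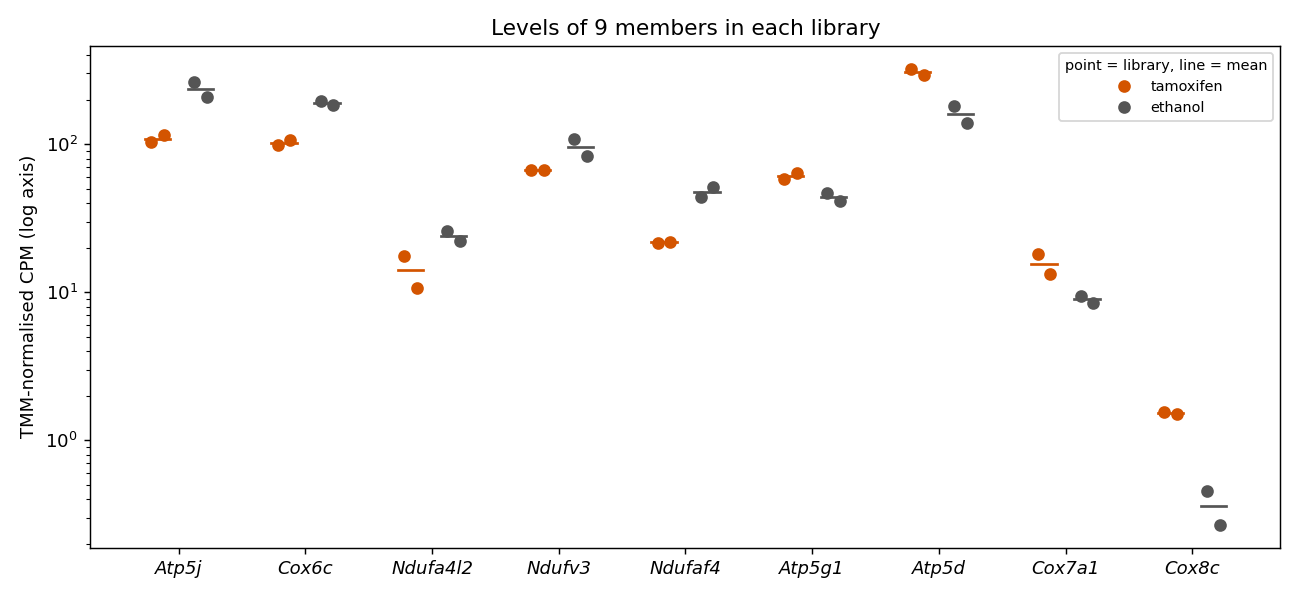
TMM-normalised CPM (log axis) of 9 members in each library, tamoxifen in orange left of ethanol in grey, with points for libraries and lines for means of 2. The groups do not overlap for any of the 9, from Atp5j at 103 and 115 against 262 and 207 CPM to Cox8c at 1.56 and 1.51 against 0.456 and 0.269.

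Promoter sequence was available for 76 members, as 300-base RefSeq windows around the start (GRCm38.p6), and motifs were searched on both strands. A gene was counted as having a motif if any of its windows matched. The NRF1 consensus motif was found for 25.0% of these members and 5.2% of all 27025 genes with windows, expressed or not. For the ETS motif CCGGAAG the shares were 22.4% and 9.9%. The YY1 motif AAGATGGC was in 14.5% and 3.2%. Calls occurred with and without each. Of 18 tested members with the NRF1 motif 2 were higher and 5 lower, and of 56 without it 6 and 9. Of 17 with the ETS motif 0 were higher and 3 lower, and of 57 without it 8 and 11. Over all genes 21.5% were called higher and 22.9% lower (44.5% in either direction). A motif match is a description and not a bound site. The windows of Atp5j and Ndufv3 are shown because each faces a neighbour that was called, with capitals for matches to the YY1 motif (AAGATGGC) and the ETS motif (CCGGAAG) in Atp5j, and to the SP1 motif (GGGCGGG) in Ndufv3.
Atp5j, chr16:84834927-84835226, strand -: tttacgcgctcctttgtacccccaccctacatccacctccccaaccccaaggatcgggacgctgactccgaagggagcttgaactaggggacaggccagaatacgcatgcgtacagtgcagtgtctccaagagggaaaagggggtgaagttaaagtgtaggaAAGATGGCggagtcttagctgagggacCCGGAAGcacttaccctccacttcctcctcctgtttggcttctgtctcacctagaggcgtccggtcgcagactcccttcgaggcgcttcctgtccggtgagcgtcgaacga
Ndufv3, chr17:31519865-31520164, strand +: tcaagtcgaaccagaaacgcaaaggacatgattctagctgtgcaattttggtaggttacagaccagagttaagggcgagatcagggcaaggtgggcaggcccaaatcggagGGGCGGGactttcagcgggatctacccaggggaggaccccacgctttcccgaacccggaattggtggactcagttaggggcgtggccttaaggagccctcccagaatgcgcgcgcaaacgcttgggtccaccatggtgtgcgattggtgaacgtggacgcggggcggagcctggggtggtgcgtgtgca

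The Atp5j window shares 247 bases with that of Gabpa, an ETS-family activator of respiratory genes transcribed in the opposite direction. Gabpa had 181 and 197 CPM with tamoxifen, against 268 and 340 with ethanol (-0.69 ± 0.16, edgeR adjusted p = 0.00528). After GC correction the neighbours parted, with -1.47 for Atp5j and -0.08 for Gabpa, which was then not called. Of the 50-base stretches of Atp5j, 16.3% occur in Gabpa or another gene's transcripts, and the strand setting of the counting is not given in the sources used here. Ndufv3 and its neighbour Wdr4 went opposite ways, Wdr4 with 18 and 18.3 CPM against 13.6 and 12 with ethanol (0.52 ± 0.16, edgeR adjusted p = 0.0235; GC-corrected 0.21, not called). In all, 34 members have a divergent coding neighbour within 1000 bases, and in 30 pairs both genes were tested. Of those pairs, 21 had the same sign, or 16 after GC correction. Both genes were called in 5 as deposited, 4 in the same direction and 1 in opposite directions, and in 1 after correction. Of all genes taken singly, 44.5% were called as deposited and 20.1% after correction. The share for other neighbouring pairs was not computed.

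Of 38 further assembly factors tested, 3 were higher and 8 lower, or 28.9% called against 44.5% of all genes. After GC correction 2 were called in each direction, or 10.5% against 20.1%. Cox20, which helps insert a core subunit of complex IV, had 23.6 and 19.6 CPM with tamoxifen, against 86.0 and 54.1 with ethanol (-1.69 ± 0.22, edgeR adjusted p = 0.000325; GC-corrected -1.29, called). Sdhaf4, a complex II assembly factor, had 5.31 and 5.49 CPM against 13.6 and 11.1 with ethanol (-1.18 ± 0.19, edgeR adjusted p = 0.000709; GC-corrected -0.87, called). Both kept their call with any library left out, while Ecsit, a complex I assembly factor at 0.51 ± 0.15 and GC-corrected 0.17, where it was not called, lost it without tamoxifen replicate 1 (0.55) or tamoxifen replicate 2 (0.47).

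Of 23 genes for electron carriers and exchange, 3 were higher and 4 lower (30.4% called, against 44.5% of all genes), and 1 and 4 after GC correction (21.7%, against 20.1%). Cycs, cytochrome c, fell by 0.80 (SE 0.14, edgeR adjusted p = 0.00113; GC-corrected -0.16, not called). In ubiquinone synthesis, Coq4 had 14.2 and 17.1 CPM with tamoxifen, against 8.34 and 7.91 with ethanol (0.95 ± 0.18, edgeR adjusted p = 0.00143). Pdss1, which makes the ubiquinone side chain, had 7.78 and 7.51 CPM against 14.6 and 13.2 with ethanol (-0.86 ± 0.18, edgeR adjusted p = 0.00239). Coq4 and Pdss1 stayed called after GC correction, at 0.79 and -0.56, and Pdss1 lost its call with GC and length correction, at -0.49.

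Of 17 regulators and factors of mitochondrial gene expression tested, 7 were higher and 5 lower (70.6% called, against 44.5% of all genes), and 5 and 1 after GC correction (35.3%, against 20.1%). Myc had 140 and 138 CPM with tamoxifen, against 49.9 and 31.5 with ethanol (1.78 ± 0.20, edgeR adjusted p = 0.000142; GC-corrected 1.60, called). Esrra, a nuclear receptor that activates respiratory genes, had 11.2 and 12.7 CPM against 4.23 and 5.18 with ethanol (1.33 ± 0.20, edgeR adjusted p = 0.000392; GC-corrected 0.61, called). Ssbp1, which binds single-stranded mitochondrial DNA, fell by 0.92 (SE 0.15, edgeR adjusted p = 0.000585; GC-corrected -0.29, not called). In the citric acid cycle, 3 of 13 genes were lower and 0 higher, or 23.1% called lower, close to the 22.9% of all genes. They were Dld (-0.74), Sucla2 (-0.65) and Fh1 (-0.56), and none of them was called after GC correction, at -0.09, -0.17 and -0.37. Idh3b, a subunit of isocitrate dehydrogenase named here after its values were seen, was the 1 gene then called lower, at -0.45. Dld, Sucla2 and Fh1 also lost their call without tamoxifen replicate 1, at -0.62, -0.51 and -0.29.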

How the data were processed

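The deposited tables, 1 per library, hold raw read counts by gene symbol. The submitters' processing notes name Bowtie 1.1.1, CASAVA 1.8.2, DESeq2 and HTSeq with build mm9, without their roles. Neither the annotation nor the strandedness of counting is given in the sources used here. Reads of near-identical copies may be split or lost: 27 members share at least 10% of their 50-base stretches with other transcripts. Lines that name no gene were left out of library sizes and tests.

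Tamoxifen was tested against ethanol by edgeR 4.0.16 (quasi-likelihood, R 4.3.3) with TMM factors, its default expression filter, and Benjamini-Hochberg adjustment over all 14479 genes tested, with a threshold of 0.05. SE is the log2 fold change divided by the square root of F. GC content, length and promoters came from GENCODE and RefSeq (GRCm38), matched by symbol for 23535 genes and by synonym for 525; 368 had no match. GC correction removed a loess trend (span 0.5) of each library against GC content. Alternatives were DESeq2 1.42.0, limma 3.58.1 (voom), other scaling, filters, a replicate block and leaving out each library. On simulated data for this comparison with 14479 genes, the test called 31.3% of genes changed 1.5-fold, 94% of those changed 2-fold and 100% of those changed 4-fold. Only 200 genes were changed in that simulation, with a common spread for all genes and no GC trend. In the data 6441 genes were called, so these shares may not hold there. Counting error and floors cover sampling only.

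Named members were all those called with the smallest adjusted p in each complex (up to 6), the extremes, the core subunits and the isoform sets, and up to 3 called genes of each pathway list. Members and lists were chosen with earlier results of these data known. The values of 1 member are not reported here, though it is included in all counts.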

Additional observations from a re-analysis of the deposited data

How the results depend on the processing

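Over 59 named genes and all alternatives, 948 of 1178 values were counted as unchanged. These include 96 values that changed sign with no call in either fit. Of the others, 177 lost and 29 gained a call, and 24 values called in either fit changed sign. The cause was not tested. All genes called (6441; 3119 higher, 3322 lower) became 2908 (1463, 1445) with GC correction, 2717 (1354, 1363) with GC and length correction, and 3806 (1765, 2041) at an adjusted p of 0.01. Leaving out 1 library, with or without GC correction, gave 865 to 7326 (417 to 3598 higher, 448 to 3728 lower). Members called higher (9) became 14 with upper-quartile factors, total counts or the replicate block, and 5 at 0.01, with 2 to 21 when 1 library was left out. Members called lower (19) became 29 with the block, 31 with block and GC correction, 6 with GC and length correction and 8 at 0.01, with 3 to 32 when 1 library was left out. With block and GC correction, 44.9% of members were called, against 34.8% of all genes. There 31 of 89 members were lower, a larger share than the 2461 of all 14479 genes. In the same fit 9 members were higher, against 2572 of all genes. With the block alone, 48.3% of members were called, against 55.9% of all genes. With GC and length correction these shares were 16.9% and 18.8%. Total counts moved the median of all genes to 0.12 and of members to 0.06.

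In complex I, 1 higher became 4 (upper quartile, total counts, block, block with GC correction), 3 (GC, GC and length) or 2 (mean count of at least 50), with 0 to 8 when 1 library was left out, and 9 lower became 15 (block), 16 (block with GC correction) or 3 (GC and length, 0.01), with 2 to 17. In complex II, 0 lower became 2 (block, with or without GC correction) or 1 (GC, GC and length), with 0 to 2. In complex III, 1 higher became 2 (upper quartile, total counts, block) or 0 (GC, block with GC correction, GC and length), with 0 to 3, and 2 lower became 0 (GC, GC and length), with 0 to 3. In complex IV, 3 higher ranged from 1 to 4, and 3 lower became 7 (block with GC correction) or 1 (GC and length, 0.01), with 0 to 4. In complex V, 4 higher became 1 (GC, 0.01) or 2 (block with GC correction, GC and length), with 0 to 6, and 5 lower became 1 (GC and length) or 2 (0.01), with 1 to 6.

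Signs turned for Atp5g2 with GC correction (-0.24, also with the block) and GC and length correction (-0.06), for Ndufs7 (-0.54, with the block -0.53) and Ndufv2 (0.02, with the block 0.01, with length 0.08), and for Cox4i1 (-0.41) and Cox8a (-0.31) with block and GC correction. With 1 library left out, ranges were -0.39 to 0.63 for Atp5g2, -0.97 to 0.05 for Atp5s, -0.81 to 0.43 for Cox6a1, -1.34 to 0.10 for Cox7b, -0.92 to 0.06 for Dld, -0.57 to 0.47 for Ndufa4, -0.65 to 0.27 for Ndufs7 and -0.69 to 0.17 for Ndufv2. Same-numbered replicates deviated together with r = 0.234 over genes, or 0.23 after GC correction; with 2 pairs, the samples share only a number. Where 1 library was left in a group, its spread was borrowed from the other group. With few reads, as for Cox8c, depth limits precision.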
